A study of Apostichopus japonicus with 9 samples.

Results

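The miRNA families miR-2008 and miR-31 were followed in a sea cucumber, Apostichopus japonicus, whose respiratory tree was sampled under 3 levels of dissolved oxygen. Their members were all entries of the deposited lists named miR-2008 or miR-31, with any letter or arm suffix. These were 4 of the 475 entries: Aja-miR-2008, Aja-miR-2008-5p, Aja-miR-31a-5p and Aja-miR-31-5p. The animals had been kept for 3 days in sea water with 2 mg/L oxygen (DO2, severe hypoxia), 4 mg/L (DO4, mild hypoxia) or 8 mg/L (DO8, the control), and 3 small RNA libraries were sequenced per group. Each library was made from the pooled RNA of 3 animals, so the errors given here are the spread between pools, and the response of a single animal is not seen. The animals of the 3 groups came from one collection and were assigned at random, oxygen in DO2 and DO4 was lowered with nitrogen, and the age of the animals is not given in the sources used here. The libraries are named DO2_1 to DO8_3 after their group and replicate.

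A miRNA is cut from a hairpin precursor as a short duplex, from which one strand is usually loaded into an Argonaute protein to silence mRNAs that match its seed, while the other strand is mostly degraded. The miR-31 family is shared by many animals and in mammals is known for roles in cell growth and migration, whereas miR-2008 is known from echinoderms and hemichordates. Both have been studied in this sea cucumber in connection with skin ulceration syndrome, a disease of the body wall. The respiratory tree is the branched organ through which the animal takes up oxygen.

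The mature sequences show which entries belong together, and are given as DNA letters as deposited, 5′ to 3′, with the seed (bases 2 to 8) in capitals.
Aja-miR-2008: tCAGCCTCgctgtcaatacga
Aja-miR-2008-5p: cGTATTAAcaatggggctgatg
Aja-miR-31a-5p: aGGCAAGAtgttggcatagct
Aja-miR-31-5p: aGGCAAGAagttggcatagct
Both miR-31 entries had the same seed, and no other entry of the lists shared it. The seeds of Aja-miR-2008 and Aja-miR-2008-5p were each found at bases 2 to 8 of no other entry. The miR-31 entries differed at 1 of 21 positions, T9A counted from the 5′ end of Aja-miR-31a-5p. The deposited values count reads with up to 2 mismatches, a tolerance wider than this difference.

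The miR-2008 entries had the sequences of the 2 strands of one duplex. They are repeated here with the bases that form Watson-Crick pairs in capitals.
Aja-miR-2008-5p: CGTATTaACAatGgGGCTGAtg
Aja-miR-2008: TCAGCCtCgcTGTcAATACGa
Laid against each other over 20 nt, they formed 16 Watson-Crick pairs and 2 G-U pairs, and 2 positions were unpaired. The 3′ ends extended 2 nt (Aja-miR-2008-5p) and 1 nt (Aja-miR-2008) beyond the duplex. No genome of this species was used here, so the position of the hairpins is not given.

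The deposited value of an entry is a normalised read signal with 1 scaling factor per library, and the reads behind it were worked out from the steps of the values. The DO2 libraries held 335658, 628808 and 1740914 such miRNA reads, against 4681523 to 6024869 in the other 6. Thus 1 read was worth 1.22 to 6.18 in DO2 and 0.556 to 0.682 elsewhere. The clean reads given with the study were similar in number in all groups. In DO2 a smaller part of them was miRNA, and larger parts were rRNA and unannotated reads. The unannotated reads made up most of the clean reads in DO2. Depth below refers to the miRNA reads of a library. The 90 entries present in every library of 1 group or more were tested, among them 3 of the 4 members. Levels were compared as log2(value + 1) in limma with Benjamini-Hochberg adjustment over the 90 entries and a threshold of 0.05. At that threshold 31.1% of the tested entries differed between DO2 and DO8 (23.3% higher in DO2 and 7.78% lower), 31.1% between DO2 and DO4 (24.4% higher and 6.67% lower), and 0.0% between DO4 and DO8, where 1 entry had an unadjusted p under 0.05.

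Aja-miR-2008 was higher in severe hypoxia than in the other groups on the deposited scale, and it was the only member that passed the test on that scale. Its value was 3463 in DO2_1, 2905 in DO2_2 and 2770 in DO2_3. The DO4 libraries had 419, 884 and 1195, and the DO8 libraries 883, 1021 and 943. Every DO2 library was therefore above every DO4 and DO8 library, a separation in the higher direction that 23.3% of the tested entries showed, while the DO4 and DO8 libraries overlapped. The means of DO2, DO4 and DO8 were 3046 ± 368, 833 ± 390 and 949 ± 69.0 (SD, n = 3). The level rose by 1.68 ± 0.36 on the log2 scale from DO8 to DO2 (SE of the limma fit, adjusted p = 0.00585), a 3.20-fold change with a 95% interval of 1.82 to 5.62. From DO4 to DO2 it rose by 1.99 ± 0.36 (limma, adjusted p = 0.00194), a 3.97-fold change. Among the 90 tested entries these increases ranked 21 and 20 in size, so Aja-miR-2008 was not among the entries with the largest changes. The call depends on the scale: with the clean reads of each library as its size, the differences were -0.52 (adjusted p = 0.449) and -0.05 (adjusted p = 0.933) by limma.

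The reads behind these values did not separate the groups. They were 560, 900 and 2276 in the DO2 libraries, 634, 1296 and 1888 in those of DO4 and 1477, 1836 and 1624 in those of DO8, each a whole number within 0.02 of a read. DO2_3 had the most reads of the 9 libraries, while DO2_1 and DO2_2 lay within or below the range of the DO4 and DO8 libraries. The exact 95% counting interval in DO2_1, the shallowest library, ran from 515 to 608 reads. By rank, Aja-miR-2008 was 22 to 25 in the DO2 libraries and 27 to 33 in the other 6, rank 1 being the entry with the highest value. Its share of all values was 0.131% to 0.167% in severe hypoxia, 0.0105% to 0.0355% in mild hypoxia and 0.0258% to 0.0347% in the control.

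Between mild hypoxia and the control no change of Aja-miR-2008 was detected. The difference was -0.31 ± 0.36 on the log2 scale (SE, limma, adjusted p = 0.802), and its 95% interval ran from -1.13 to 0.50. The DO4 group was the most variable, with a coefficient of variation of 46.9% against 12.1% in DO2 and 7.27% in DO8. This spread came with DO4_1, whose value of 419 was the lowest of all libraries. Without DO4_1 the difference between DO4 and DO8 turned to 0.12.

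**Figure D1:**
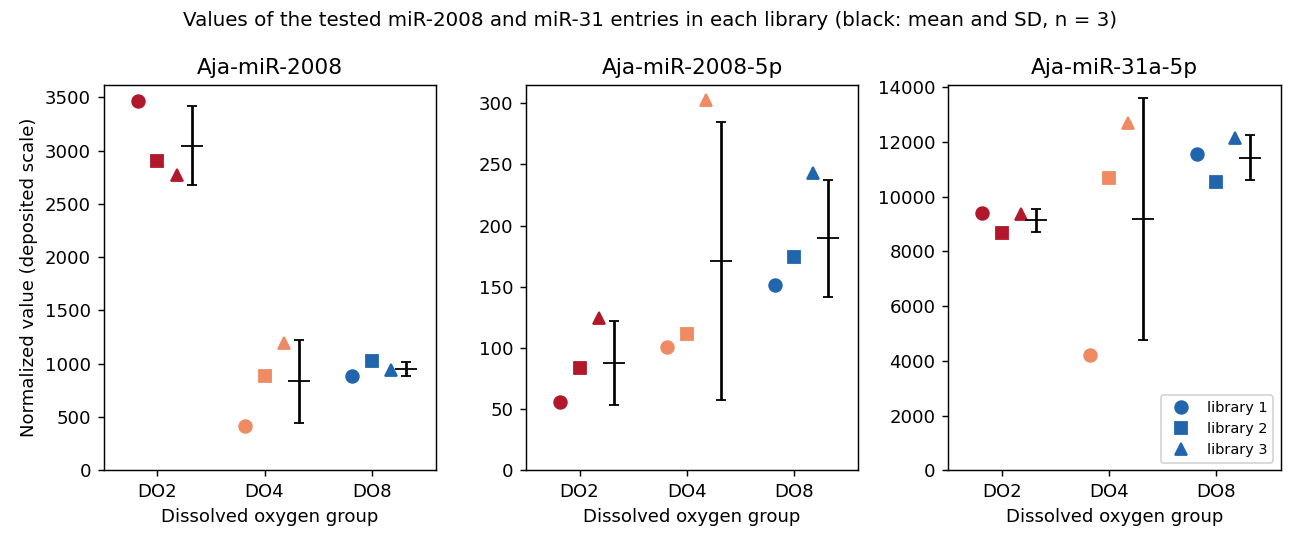
Normalized values of Aja-miR-2008, Aja-miR-2008-5p and Aja-miR-31a-5p in each library (vertical axes, deposited scale, linear from 0) by dissolved oxygen group (horizontal axes), with circles, squares and triangles for libraries 1, 2 and 3 and black bars for mean and SD (n = 3). The 3 DO2 values of Aja-miR-2008 (2770 to 3463) lie above all others (419 to 1195), while for Aja-miR-2008-5p DO2 (55.7 to 124.1) overlaps DO4 and lies below DO8.

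Aja-miR-2008-5p, the opposite strand of the duplex, did not follow Aja-miR-2008. Its values were 55.7, 83.9 and 124.1 in severe hypoxia, 101, 111 and 303 in mild hypoxia, and 152, 174 and 243 in the control. All DO2 libraries were below all DO8 libraries, as were those of 22.2% of the tested entries, whereas DO2 and DO4 overlapped. The means, again in the order DO2, DO4 and DO8, were 87.9 ± 34.4, 171 ± 114 and 190 ± 47.7 (SD, n = 3). The difference between DO2 and DO8 was -1.15 ± 0.53 on the log2 scale and did not pass the test (SE, limma, adjusted p = 0.130), with a 95% interval from -2.33 to 0.04. Between DO2 and DO4 it was -0.84 ± 0.53 (SE, limma, adjusted p = 0.243), and between DO4 and DO8 -0.31 ± 0.53 (limma, adjusted p = 0.863).

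This strand was thinly sampled in severe hypoxia. It was supported by 9, 26 and 102 reads in the DO2 libraries, whereas DO4 had 152, 163 and 478 reads and DO8 had 254, 313 and 419. In DO2_1 the exact 95% interval of 9 reads was 4.12 to 17.1, which left its value open between 25.5 and 106. The order of the DO2 values thus lies within counting error for DO2_1 and DO2_2, whose intervals of 25.5 to 106 and 54.8 to 123 overlap.

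Within a library the ratio of the strands does not depend on how that library was scaled, because the factor cancels. Aja-miR-2008 outnumbered Aja-miR-2008-5p in all 9 libraries, and the excess was larger in severe hypoxia. The ratio was 62.2 in DO2_1, 34.6 in DO2_2 and 22.3 in DO2_3. The DO4 libraries had ratios of 4.17, 7.95 and 3.95, and the DO8 libraries 5.81, 5.87 and 3.88. The lowest DO2 ratio was thus above the highest of the other 6, and DO4 and DO8 overlapped. The geometric means of DO2, DO4 and DO8 were 36.4, 5.08 and 5.09, so that the ratio in DO2 was 7.14-fold that in DO8 and 7.16-fold that in DO4. Expressed as a share, Aja-miR-2008-5p made up 1.58% to 4.29% of the family's reads in DO2 and 11.2% to 20.5% elsewhere.

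DO2 differed from the other 6 libraries in this log2 ratio with p = 0.0238 (two-sided exact permutation test), the smallest that 3 libraries against 6 allow, and the adjusted p over the 20 permutation tests of ratios and sums was 0.159. Against DO8 or DO4 alone the exact permutation p was 0.1, the smallest possible with 3 against 3 (adjusted p = 0.182 for both). Between DO4 and DO8 the log2 ratio differed by -0.0044 (exact permutation p = 1.0). Within DO2 the ratio was highest in the shallowest library and lowest in the deepest, and the part of depth in this order was not tested. In DO2_3, the deepest DO2 library, the exact 95% interval was 18.3 to 27.5, and its lower bound was above the highest upper bound among the DO4 and DO8 libraries, 9.42. These intervals, like all others given for reads, cover counting error only, since PCR copies are not independent molecules.

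**Figure D2:**
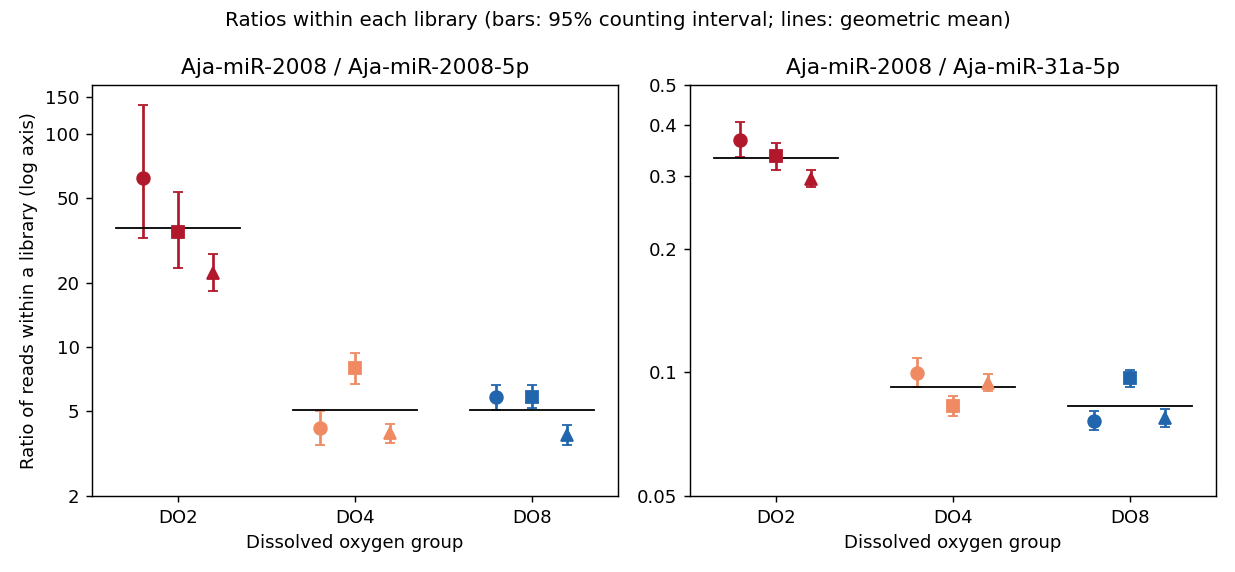
Ratio of Aja-miR-2008 to Aja-miR-2008-5p (left) and to Aja-miR-31a-5p (right) in each library on log axes, with exact 95% counting intervals and a line for the geometric mean of each group. The DO2 libraries lie apart in both panels (22.3 to 62.2 against 3.88 to 7.95, and 0.296 to 0.368 against 0.0763 to 0.0999).

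After the values had been seen, the same ratio was taken for other families, to set the shift of miR-2008 beside them. All pairs of entries of one family that pair at 15 or more positions and are listed in all 9 libraries were used, which gave 5 pairs, 1 of them miR-2008. The cut left out pairs with 14 paired positions, and some of these were listed in all 9 libraries. There, Aja-miR-200-3p stood to Aja-miR-200 at 186 to 634 in DO2 and 932 to 3248 elsewhere, lower without overlap. Aja-let-7-5p stood to Aja-let-7a-5p at 3670 to 4022 against 2229 to 4450, with overlap, but both are 5p forms by name and so not opposite strands. Among the 5 pairs used, DO2 overlapped the other libraries in the 4 other than miR-2008. Aja-let-7-5p, a miRNA of developmental timing, stood to Aja-let-7b-3p at 99.5 to 106 in DO2 and 57.3 to 188 elsewhere. Aja-let-7b-3p stood to Aja-let-7a-5p at 34.5 to 40.4 against 21.8 to 49.0, and these let-7 pairs share the entry Aja-let-7b-3p. Aja-miR-2006-5p, another miRNA of an echinoderm family, stood to Aja-miR-2006-3p at 11.4 to 20.7 against 13.3 to 42.4.

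The remaining pair of the 5 shifted in the opposite direction. Aja-miR-9-5p, of a family known from the nervous system, stood to Aja-miR-9-3p at 0.655 to 1.65 in DO2 and 1.5005 to 2.85 in the other libraries, a 2.24-fold lower ratio in DO2 (two-sided exact permutation test, p = 0.0476, adjusted p over the 5 pairs 0.119). By the same adjustment over the 5 pairs the p for miR-2008 was 0.119 as well, and for the other 3 pairs the unadjusted exact permutation p was 0.286 to 1.0. The strand ratio therefore did not move one way over the families that could be examined.

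**Figure D3:**
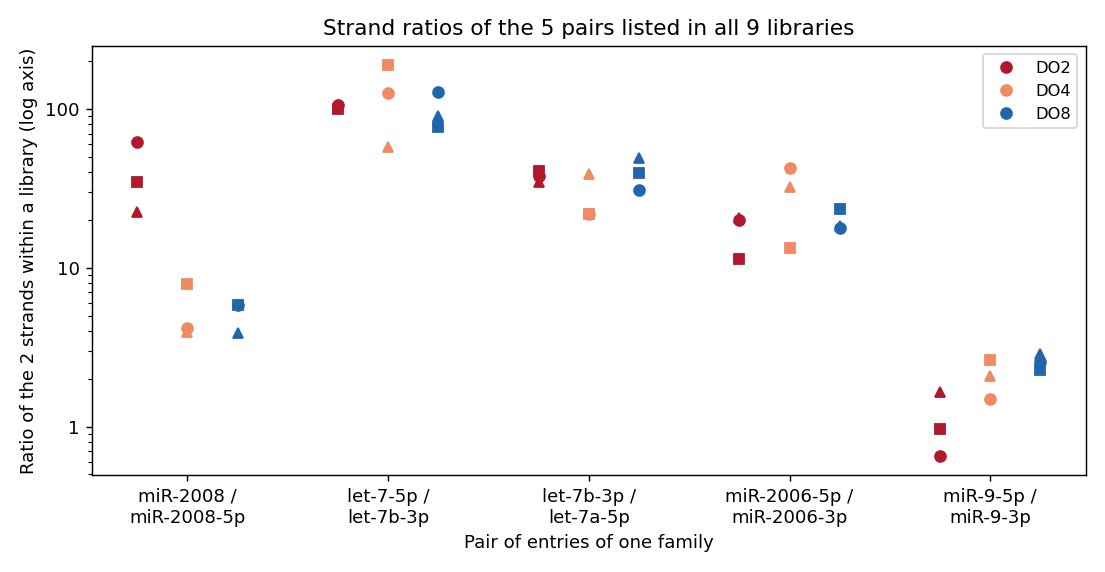
Ratio of the strands of 5 pairs of entries in each library (vertical log axis) by pair (horizontal axis), coloured by group, with circles, squares and triangles for libraries 1, 2 and 3. For miR-2008 the DO2 points (22.3 to 62.2) lie above the rest, and for the other pairs they overlap the DO4 and DO8 points.

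The sum of both miR-2008 entries followed Aja-miR-2008, which made up most of it. It averaged 3134 ± 337, 1004 ± 489 and 1139 ± 90.0 in the groups from DO2 to DO8 (SD, n = 3). It was 3.06-fold higher in DO2 than in the other 6 libraries, without overlap (exact permutation over the libraries, two-sided, p = 0.0238, adjusted p over the 20 tests 0.159).

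Aja-miR-31a-5p, the abundant miR-31 entry, did not pass the test in any comparison on the deposited scale. Its values were 9407, 8659 and 9358 in severe hypoxia, 4196, 10664 and 12677 in mild hypoxia, and 11571, 10537 and 12154 in the control. The DO2 libraries were all below the DO8 libraries, again as in 22.2% of the tested entries, and lay inside the wide range of DO4. The means from DO2 to DO8 were 9141 ± 418, 9179 ± 4431 and 11421 ± 819 (SD, n = 3). Their coefficients of variation were 4.57%, 48.3% and 7.17%, and the limma fit shares 1 spread over all groups, so the wide DO4 group enters every SE. The difference between DO2 and DO8 was -0.32 ± 0.36 on the log2 scale (SE, limma, adjusted p = 0.537), with a 95% interval from -1.13 to 0.49. Between DO2 and DO4 it was 0.14 ± 0.36 (limma, adjusted p = 0.754, 95% interval -0.67 to 0.95) and between DO4 and DO8 -0.46 ± 0.36 (limma, adjusted p = 0.802).

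The order of the DO2 and DO4 means of Aja-miR-31a-5p rested on DO4_1. This library had 4196, and the other 8 had 8659 to 12677. Without it the difference between DO2 and DO4 turned to -0.35 and that between DO4 and DO8 to 0.03, neither past the threshold. DO4_1 was also the library with the lowest Aja-miR-2008, and the ratio of Aja-miR-2008 to Aja-miR-31a-5p in it, 0.0999, was close to those of the other DO4 libraries, 0.0829 and 0.0943. Aja-miR-31a-5p was among the better sampled miRNAs, with 1521 to 7689 reads in the DO2 libraries and 6345 to 20928 in the other 6, and its rank by value was 16 to 19 in all 9 libraries. On the scale of clean reads it did pass the test, with a log2 difference of -2.52 against DO8 and -1.90 against DO4 (limma, adjusted p = 0.00206 and 0.0127).

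The entry named Aja-miR-31-5p in the files, the form that carries T9A, was close to undetected. The study uses the name Aja-miR-31-5p for the abundant entry, which the files call Aja-miR-31a-5p, so the low values given here are not those of the miRNA known by that name there. It was listed only in DO8_3, with a value of 0.774, or 1.33 reads, the lowest value of that library. The values of the files hold fractions of a read, mostly in sixths. In DO8_3 Aja-miR-31a-5p outnumbered it 15696-fold. The 95% counting interval, 3756 to 826651, was taken on reads rounded to whole numbers and is only a rough guide for a value of 1.33 reads. In the other 8 libraries the form is not listed, and whether it is a miRNA of its own was not tested. Against a floor of 3 reads per library, which is above the smallest number of reads listed in any library (1.33 to 2.50), Aja-miR-31a-5p was at least 507-fold higher in DO2_1, 894-fold in DO2_2 and 2563-fold in DO2_3. In DO4 the bounds were 2115, 5213 and 6675, and in DO8_1 and DO8_2 they were 6452 and 6318. The bounds differ with depth, and no comparison of the miR-31 forms between groups was possible at this depth.

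Set against Aja-miR-31a-5p within a library, Aja-miR-2008 was higher in severe hypoxia. The ratio of Aja-miR-2008 to Aja-miR-31a-5p was 0.368, 0.335 and 0.296 in the DO2 libraries, against 0.0999, 0.0829 and 0.0943 for DO4 and 0.0763, 0.0969 and 0.0776 for DO8. All DO2 libraries were above all others, and DO4 and DO8 overlapped. How many tested entries separate in this way in their ratio to Aja-miR-31a-5p was not worked out. By value, 23.3% of them were higher in DO2 without overlap. The ratio, which was added after the values had been seen, was 3.99-fold higher in DO2 than in DO8 and 3.60-fold higher than in DO4. DO2 against the other 6 libraries gave p = 0.0238 by an exact permutation test, the smallest possible (two-sided, adjusted p over the 20 tests 0.159). Within groups the SD of this ratio on the log2 scale was 0.16, 0.14 and 0.19 from DO2 to DO8.

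The ratio of Aja-miR-2008-5p to Aja-miR-31a-5p, likewise added after the values had been seen, did not separate the groups. It was 0.00592, 0.00969 and 0.0133 for the DO2 libraries, 0.0240, 0.0104 and 0.0239 for DO4, and 0.0131, 0.0165 and 0.02002 for DO8. DO2_3 overlapped both other groups (DO2 against the other 6, exact permutation, two-sided p = 0.0714, adjusted p = 0.182). The shift of ratios in severe hypoxia thus lay between Aja-miR-2008 and both of the other tested members.

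How the levels of the members compare between groups depended on what a library was scaled to, and the ratios within a library did not. With all libraries scaled to equal miRNA totals, Aja-miR-2008 rose by 2.23 from DO8 to DO2 (limma, adjusted p = 0.00257), while the median of all tested entries lay at 0.51, and Aja-miR-31a-5p changed sign to 0.23 (limma, adjusted p = 0.669). With the clean reads as library size, that median fell to -1.52, and of the 90 entries 13 were higher and 52 lower in DO2 than in DO8, against 21 higher and 7 lower on the deposited scale. On this scale Aja-miR-2008-5p fell by 2.86 and Aja-miR-31a-5p by 2.52 from DO8 to DO2 (limma, adjusted p = 0.00171 and 0.00206), and Aja-miR-2008 had an RPM of clean reads of 57.6, 90.8 and 207 in severe hypoxia, 55.2, 129 and 169 in mild hypoxia and 132, 160 and 154 in the control. Its groups overlapped there. On the deposited scale and on the scales of median-ratio factors, equal totals and clean reads, Aja-miR-2008 lay above the other tested members in its difference between DO2 and DO8 and between DO2 and DO4. Each scale multiplies all entries of a library by 1 factor. This order therefore restates the ratios within a library, apart from the 1 added to each value, and is not a further test. In bulk tissue, fewer cells that carry a miRNA and less of it per cell cannot be told apart.

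**Figure D4:**
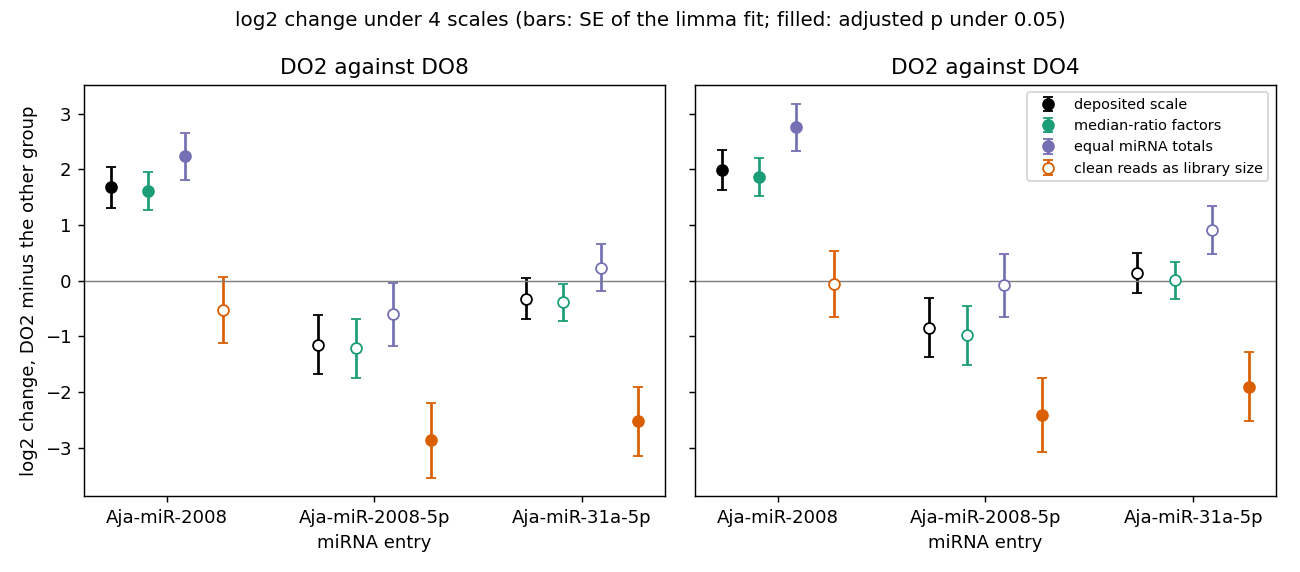
log2 change from DO8 to DO2 (left) and from DO4 to DO2 (right) of the 3 tested members (horizontal axes) under 4 ways of scaling the libraries, with SE of the limma fit and filled points for an adjusted p under 0.05. Aja-miR-2008 runs from -0.52 to 2.23 on the left across the scales, and on each scale it is above Aja-miR-2008-5p and Aja-miR-31a-5p. This order restates the ratios within a library, which the scaling does not change.

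The tested entries most like each member over the 9 libraries were found by the root mean square difference of their centred log2 values, where 0 is an identical pattern. For Aja-miR-2008 these were Aja-miR-133 at 0.53, a muscle miRNA in vertebrates and flies, Aja-miR-184 at 0.54 and Aja-miR-375-3p at 0.58, known from secretory cells. The median distance of all tested entries to Aja-miR-2008 was 1.25. Of these, Aja-miR-133 had means of 101 ± 54.2, 19.5 ± 7.26 and 28.7 ± 6.22 from DO2 to DO8 (SD, n = 3), and passed the test against DO4 (2.19, limma, adjusted p = 0.0183) but not against DO8 (1.62, adjusted p = 0.0623). For Aja-miR-2008-5p the nearest were Aja-miR-9-5p at 0.49, Aja-miR-2011-3p at 0.50 and Aja-miR-200-3p at 0.50, an epithelial miRNA in vertebrates. Aja-miR-200-3p fell by 1.501 from DO8 to DO2 (limma, adjusted p = 0.0038; 0.0779 with equal miRNA totals). For Aja-miR-31a-5p they were Aja-miR-2011-3p at 0.33, Aja-miR-184-3p at 0.36 and Aja-miR-193-3p at 0.41, none of which passed the test in any comparison. The median distances were 1.12 for Aja-miR-2008-5p and 0.87 for Aja-miR-31a-5p. A flat pattern would lie at 0.95 from Aja-miR-2008, 0.71 from Aja-miR-2008-5p and 0.45 from Aja-miR-31a-5p. The entries near Aja-miR-31a-5p were thus little closer to it than no pattern at all.

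The other families known from echinoderms and hemichordates had 13 entries, of which 11 were tested. Between DO2 and DO8 0 were called higher and 1 lower by limma, beside 23.3% and 7.78% of all tested entries, Aja-miR-2013-3p at -1.14 (adjusted p = 0.00645), with a median of -0.26 beside -0.03 over all tested entries. With an unadjusted p under 0.05, 1 was higher and 2 were lower in that comparison. Between DO2 and DO4, Aja-miR-2002-3p rose by 2.97 (limma, adjusted p = 0.0223) and Aja-miR-2013-3p fell by 1.22 (adjusted p = 0.00422), with a median of -0.34 beside -0.14. These counts also rest on the scale. With clean reads as library size 10 of the 11 were lower in DO2 in each comparison and 0 higher. Of all 90 tested entries, 52 (against DO8) and 50 (against DO4) were lower on that scale and 13 higher in each. With equal miRNA totals 1 and 2 were higher and 0 lower, beside 30 and 36 higher and 4 and 1 lower of the 90. Aja-miR-2013-3p was then no longer called (adjusted p = 0.129 against DO8 and 0.236 against DO4 by limma).

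Of 8 entries of other families studied in the immune response of this species, namely miR-133, miR-137, miR-200 and miR-210, 7 were tested. Against DO8, on the deposited scale, Aja-miR-137 rose by 1.41 (limma, adjusted p = 0.0159) and Aja-miR-200-3p fell by 1.501. The median of the 7 was -0.28, beside -0.03 over all tested entries, of which 23.3% were higher and 7.78% lower. Against DO4, Aja-miR-133 and Aja-miR-137 rose (2.19 and 1.15, limma, adjusted p = 0.0183 and 0.037) and Aja-miR-200-3p fell by 1.34 (adjusted p = 0.00635). There the median of the 7 was -0.64, beside -0.14 over all tested entries, of which 24.4% were higher and 6.67% lower. With equal miRNA totals neither call of Aja-miR-200-3p was kept (-0.95 against DO8 and -0.57 against DO4, limma, adjusted p = 0.0779 and 0.256), and with median-ratio factors that of Aja-miR-137 against DO4 was lost (adjusted p = 0.0641). With clean reads as library size 0 of the 7 were higher and 4 lower in each comparison. Of all 90 tested entries, 13 were then higher in each, and 52 (against DO8) and 50 (against DO4) were lower.

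Some markers of muscle and of the nervous system were higher in DO2 on the deposited scale, as Aja-miR-2008 was, and others were not. No miRNA was taken as defining the respiratory tree, so the tissue label itself was not checked. Of 6 entries of the muscle families miR-1, miR-133 and miR-206, 5 were tested and 2 were higher in DO2 in each comparison, where 23.3% (against DO8) and 24.4% (against DO4) of all tested entries were higher. The others included Aja-miR-133a-5p at -3.79 and Aja-miR-133-3p at -0.47 between DO2 and DO8, neither past the threshold (limma, adjusted p = 0.0972 and 0.266). The summed value of the muscle entries was 77416 to 129224 in severe hypoxia, 73264 to 95945 in mild hypoxia and 54758 to 69823 in the control, with 4 to 6 entries listed in a library. Of 9 entries of families known from the nervous system, 8 were tested and 3 were higher in DO2 in each comparison, beside the same 23.3% and 24.4%, with sums of 2176 to 3776, 1939 to 2442 and 1848 to 2389. The median log2 changes of the muscle and nervous system entries were 0.85 and 0.76 against DO8, beside -0.03 over all tested entries. Against DO4 these medians were 0.37 and 0.44, beside -0.14. The gut and secretory list had 1 tested entry, Aja-miR-375-3p, which was higher in DO2 than in DO4 (1.06, limma, adjusted p = 0.0401). That call was lost with median-ratio factors (0.92, adjusted p = 0.0635 by limma), and the difference turned to -0.99 with clean reads (adjusted p = 0.187). The sums of this list were 27935 to 38233, 9374 to 21229 and 18282 to 33278. The vertebrate blood and liver list had 1 tested entry, which passed in neither comparison, with sums of 8.07 to 99.2, 1.32 to 201 and 0.0 to 12.2. The 6 entries named miR-6236 and miR-6240, whose sequences in mouse match rRNA, were a list added to those planned. All 6 were higher in DO2 in both comparisons, beside 23.3% and 24.4% of all tested entries. Aja-miR-6236 had a mean of 0 in DO4 and in DO8, so it was tested only through DO2 and could only come out higher there. The 6 entries summed to 7585 to 71482 in DO2 and 136.8 to 374 in the other libraries. With clean reads as library size the muscle list had 0 entries higher and 3 lower in DO2 in each comparison. The nervous system list had 0 and 1 higher and 4 lower. Of all 90 tested entries, 13 were then higher in each comparison, and 52 (against DO8) and 50 (against DO4) were lower. The miR-6236 and miR-6240 entries were higher on all 4 scales. The part of these tissues and of RNA quality in the result for Aja-miR-2008 was not tested.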

How the data were processed

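Small RNA libraries of 9 pools were sequenced by the authors on an Illumina HiSeq2500. Reads were trimmed, rRNA, tRNA, snRNA and snoRNA reads removed, and the rest aligned to animal miRNAs of miRBase 21 with up to 2 mismatches or passed to hairpin prediction; the processing notes name CASAVA 1.5. The deposited values are a signal scaled with 1 factor per library. A division by clean reads is described, but each library sums to at least 2029412, more than that formula allows, so where the factor came from is unknown. Values are not counts: 65.5% to 81.1% per library are whole reads (within 0.02), so no count test was used. Reads were worked out from the steps of the values.

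log2(value + 1) of the 90 entries listed in all 3 libraries of a group was analysed in limma 3.58.1 under R 4.3.3 (1 mean per group, all 9 libraries, trended variance). Ratios and sums went into exact permutation tests, two-sided (Python 3.11.15, numpy 2.4.6, pandas 2.3.3), adjusted over 20 tests. Scripts were tested on simulated data. All members are named, with the 3 nearest entries of each tested member and called list entries, up to 6 per list. Members and lists were chosen with earlier results of these data known. The clean reads of the alternative are the totals given with the study. No genome was used, and 0 sample columns were left out.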

Additional observations from a re-analysis of the deposited data

How the results depend on the processing

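Of 171 values of the tested members under alternatives, 161 kept their direction and side of the threshold. Clean reads as library size gave the main exceptions: Aja-miR-2008 at -0.52 (DO2 against DO8) and -0.051 (DO2 against DO4), neither called; Aja-miR-2008-5p at -2.86 and -2.41, and Aja-miR-31a-5p at -2.52 and -1.90, all called by limma. The cause was not tested. Equal miRNA totals turned Aja-miR-31a-5p to 0.23 against DO8, and the share of all values turned its family sum to 0.23 against DO8 and 0.57 against the other 6 libraries. Over the remaining alternatives Aja-miR-2008 stayed called, from 1.58 to 2.23 against DO8 and from 1.56 to 2.76 against DO4.

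Leaving out 1 library gave ranges of -0.64 to 0.12 for Aja-miR-2008 and -0.77 to 0.028 for Aja-miR-31a-5p (DO4 against DO8), and -0.35 to 0.45 for Aja-miR-31a-5p (DO2 against DO4), each turned by DO4_1. For log2 ratios and sums between DO4 and DO8 the ranges were -0.33 to 0.18 (Aja-miR-2008 to Aja-miR-2008-5p), -0.048 to 0.55 (Aja-miR-2008-5p to Aja-miR-31a-5p), -0.66 to 0.10 (miR-2008 sum) and -0.77 to 0.028 (miR-31 sum), and for the miR-31 sum between DO2 and DO4 -0.35 to 0.45. The log2 strand ratio of miR-2008 stayed between 2.45 and 3.19 for DO2 against the other 6.

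Entries called numbered 28 in each DO2 comparison, but 65 (DO2 against DO8) and 63 (DO2 against DO4) with clean reads, 34 (30 higher, 4 lower) and 37 (36 higher, 1 lower) with equal totals, and 18 for DO2 against DO8 without DO8_1. Between DO4 and DO8, 1 was called with 0.01 added, 2 in a fit of those groups alone, 2 with each miRNA tested alone, and 2 without DO2_1. Same replicate numbers did not pair the samples (correlations of -0.37 to 0.23, 2 of 9 above 0.1); with the replicate number as a block Aja-miR-2008 had adjusted p = 0.012 and 0.00488 by limma, 26 and 27 entries were called, and no member's call changed.

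The low number of miRNA reads in DO2, at clean read totals similar to the other groups, limits Aja-miR-2008-5p (9 reads in DO2_1) and the miR-31 forms.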
